A study of Mus musculus with 19 samples.

Results

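Rab proteins are the small GTPases of membrane traffic, and their transcripts were followed in the hippocampus of an amyloid mouse model. Every gene was taken whose RefSeq symbol is Rab, a number and at most 1 further letter, provided that at least 1 probe was well above background on 6 or more arrays. Of 59 such symbols in the RefSeq table, 57 had a probe on the array and 55 passed, out of 25599 genes tested in all. Rab17 and Rab25 did not pass, and Rab36 and Rab44 had no matched probe.

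Hippocampal RNA of mice aged 8 months was hybridised to 19 Agilent mouse arrays, each with its own sample label and taken as 1 mouse. The groups were APP/PS1 mice given urolithin A (UA, a gut bacterial metabolite of ellagitannins) in DMSO by gavage at 200 mg per kg per day from 6 months of age (n = 6), APP/PS1 mice given the DMSO vehicle (n = 7), and wild-type (WT) littermates given the vehicle (n = 6). APP/PS1 mice carry mutant APP and presenilin 1 transgenes driven by mouse prion protein promoter elements, so all APP/PS1 mice carry both transgenes whether or not they received UA. No group of WT mice given UA was analysed here, so the UA comparisons describe the compound in transgenic mice.

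A Rab protein is active when it binds GTP on a membrane and inactive when it holds GDP in complex with a dissociation inhibitor (GDI) in the cytosol. Guanine nucleotide exchange factors switch it on, GTPase-activating proteins of the TBC family switch it off, and effectors recruited by the active form tether, move or fuse vesicles. Different Rabs mark different organelles: Rab1 and Rab2 act between the endoplasmic reticulum (ER) and Golgi, Rab6 at the Golgi, Rab3 and Rab27 on secretory vesicles, Rab5 on early endosomes, Rab11 on recycling endosomes and Rab7 on late endosomes and lysosomes.

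A level below is the log2 array signal minus the 75th percentile of that array. It ranks arrays for 1 probe and does not rank genes against each other. The 75th percentile lay between 450.4 and 1199 intensity units over the 19 arrays. It ran from 615.6 to 937.8 on APP/PS1 UA, from 450.4 to 955.6 on APP/PS1 vehicle and from 787.1 to 1199 on WT arrays. Of the 55 Rabs, 53 were well above background on every array. The exceptions were Rab19, above background on 6 of 6 APP/PS1 UA, 5 of 7 APP/PS1 vehicle and 5 of 6 WT arrays, and Rab20, above background on 4 of 6, 5 of 7 and 2 of 6. Prnp, whose signal carries the transgene vector, had a lowest, median and highest level of 8.32, 8.53 and 9.0 on APP/PS1 UA arrays and of 8.47, 8.61 and 8.93 on APP/PS1 vehicle arrays, against 6.70, 6.98 and 7.05 on WT arrays, so each array matched its genotype label. The 10 hippocampal marker genes were all above the filter. Slide 1 held 2 APP/PS1 vehicle and 6 WT arrays, slide 2 held 3 APP/PS1 UA and 5 APP/PS1 vehicle arrays, and slide 3 held 3 APP/PS1 UA arrays. Sex read from Xist and Y-linked genes gave 1 of 6 APP/PS1 UA, 3 of 7 APP/PS1 vehicle and 1 of 6 WT arrays as female. Markers of the choroid plexus, a tissue beside the hippocampus, split the arrays into 9 with a mean level of at most 0.22 and 10 with at least 2.82. The 10 arrays with strong choroid plexus signal were 4 of 6 APP/PS1 UA, 5 of 7 APP/PS1 vehicle and 1 of 6 WT arrays.

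APP/PS1 vehicle against WT mice asks how Rab transcripts differ in the amyloid model. Rab7b and Rab32 were higher in APP/PS1 vehicle hippocampus, and Rab6b, Rab6a and Rab14 were lower, which makes 5 of 55 Rabs (9.09%) called at an adjusted p under 0.05. Over all genes tested that share was 5.07%, with 2.69% called higher and 2.38% called lower. Rab7b changed 2.17-fold, and the other 4 changed between 1.21-fold and 1.33-fold. At an unadjusted p under 0.05 the count was 17 of 55 Rabs, 4 higher and 13 lower, against 24% of all genes, 11.6% higher and 12.4% lower. The difference was below 0 for 41 of the 55 Rabs, against 49.6% of all genes tested, and the median difference was -0.11 over the Rabs and 0.00 over all genes. Each gene counts by its brightest probe, and 10 of 27 Rabs with several kept probes had probes of both signs. Of the 53 Rabs above background on all 19 arrays, 77.4% lay below 0, 9.43% were called and 32.1% had an unadjusted p under 0.05. For the 20673 genes above background on all 19 arrays these shares were 53.3%, 5.83% and 26.1%. In whole tissue, fewer cells of a type and less RNA per cell cannot be told apart.

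Promoter windows of the called Rabs, from 250 bases before the annotated start to 50 bases after it, are shown for reference. A link between these letters and the direction of a difference was not tested. The RefSeq table on build GRCm38.p6 held windows for 46 of the 55 Rabs and for 4 of the 5 that were called, and Rab7b had none. Each is written 5′ to 3′ on the strand of its gene, and capitals mark every match, on either strand, to the E-box CACGTG, the PU.1-type core GAGGAA, the cAMP response element TGACGTCA, the CCAAT box, the GC box GGGCGG or the TATA box TATAAA.
Rab32, chr10:10558158-10558457, minus strand: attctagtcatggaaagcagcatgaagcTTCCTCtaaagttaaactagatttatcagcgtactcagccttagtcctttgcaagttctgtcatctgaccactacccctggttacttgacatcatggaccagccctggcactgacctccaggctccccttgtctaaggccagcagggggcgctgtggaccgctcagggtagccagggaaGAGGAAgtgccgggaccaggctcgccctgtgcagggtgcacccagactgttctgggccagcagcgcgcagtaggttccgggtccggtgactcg
Rab6b, chr9:103111824-103112123, plus strand: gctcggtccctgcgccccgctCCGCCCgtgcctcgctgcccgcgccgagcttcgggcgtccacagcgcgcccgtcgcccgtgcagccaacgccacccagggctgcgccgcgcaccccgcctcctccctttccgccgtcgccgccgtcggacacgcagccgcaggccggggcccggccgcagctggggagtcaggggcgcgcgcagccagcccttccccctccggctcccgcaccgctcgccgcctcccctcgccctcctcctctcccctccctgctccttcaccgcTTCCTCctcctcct
Rab6a, chr7:100607336-100607635, plus strand: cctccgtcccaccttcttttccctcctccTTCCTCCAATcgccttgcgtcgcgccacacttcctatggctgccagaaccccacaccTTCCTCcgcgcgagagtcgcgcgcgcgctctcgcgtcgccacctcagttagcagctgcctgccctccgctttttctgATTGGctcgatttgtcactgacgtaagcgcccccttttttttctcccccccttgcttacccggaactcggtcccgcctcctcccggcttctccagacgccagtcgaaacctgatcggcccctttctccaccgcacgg
Rab14, chr2:35201071-35201370, minus strand: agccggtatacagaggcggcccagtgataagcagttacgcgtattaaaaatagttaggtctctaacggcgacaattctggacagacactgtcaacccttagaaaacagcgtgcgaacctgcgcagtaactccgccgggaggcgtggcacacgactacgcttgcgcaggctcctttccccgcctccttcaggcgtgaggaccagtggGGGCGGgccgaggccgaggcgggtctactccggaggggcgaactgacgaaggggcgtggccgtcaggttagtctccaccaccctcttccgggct
Rab32 held GAGGAA 2 times, with first bases 222 and 43 bases before the start. Rab6a held the same letters 2 times, 221 and 164 bases before the start, and CCAAT 2 times, 216 and 87 bases before it, and the most upstream pair overlaps. Rab6b held GGGCGG 229 bases before its start and GAGGAA at base 37 after it, and Rab14 held GGGCGG 44 bases before its start. CACGTG, TGACGTCA and TATAAA were in none of the 4 windows. Of 32851 promoter windows in the table, 28.3% hold GAGGAA, 37.4% CCAAT, 35.7% GGGCGG, 7.15% CACGTG, 1.79% TGACGTCA and 13.6% TATAAA. Among all 58 windows of the Rabs, several for some genes, GGGCGG was in 41 (70.7%), CCAAT in 26 (44.8%), GAGGAA in 11 (19%), CACGTG in 6 (10.3%), TATAAA in 4 (6.9%) and TGACGTCA in 1 (1.72%). A match here is a run of letters and not a measured binding site.

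**Figure D1:**
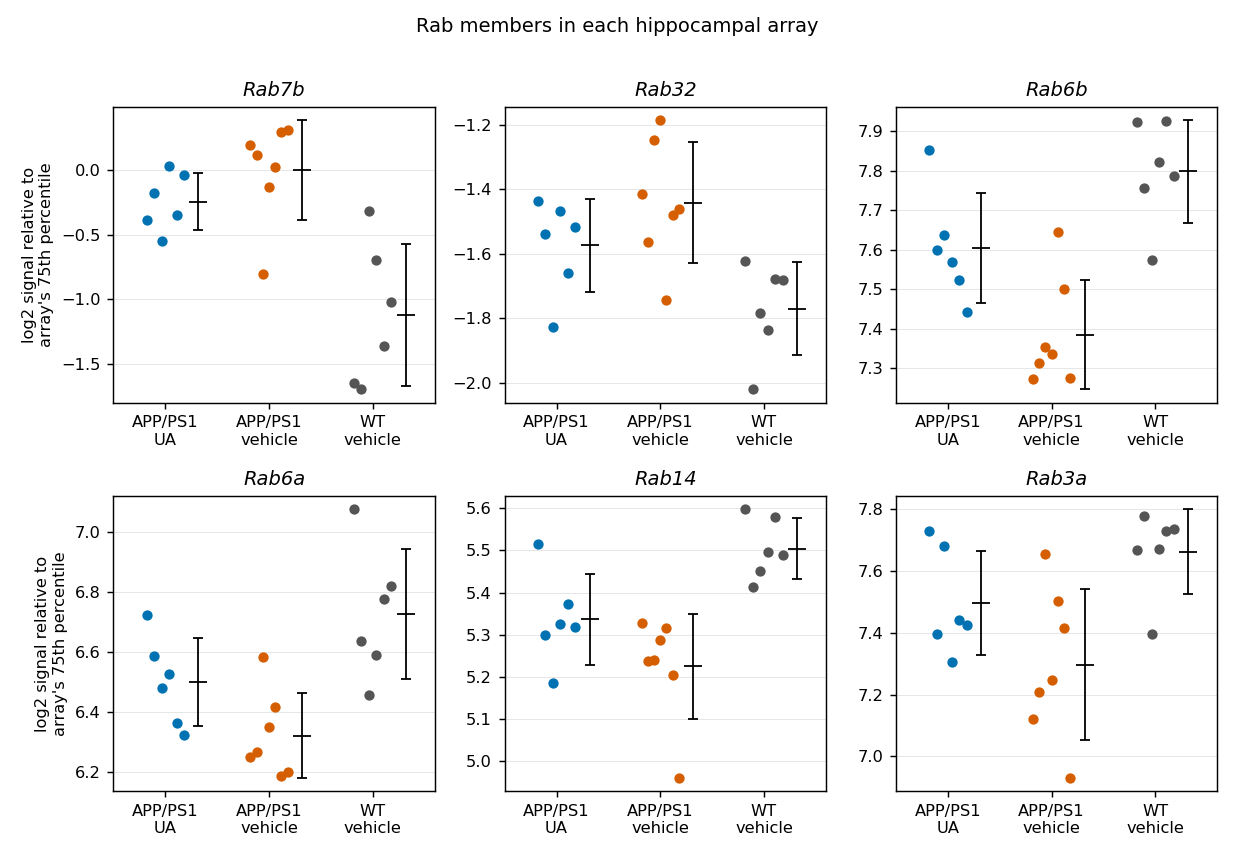
Levels of the 5 called Rabs and of Rab3a on each array (y axis, log2 signal relative to the array's 75th percentile; each panel has its own range) in APP/PS1 UA (n = 6), APP/PS1 vehicle (n = 7) and WT vehicle mice (n = 6). Points are arrays, and the bars beside them give the mean ± SD; Rab14 is the panel in which APP/PS1 vehicle and WT arrays do not overlap.

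Late endosomal and lysosomal Rabs held the largest difference of the family. Rab7b, which acts in traffic from late endosomes to the trans-Golgi and was characterised in macrophages as a brake on Toll-like receptor signalling, had a lowest, median and highest level of -0.55, -0.26 and 0.03 in APP/PS1 UA mice and of -0.80, 0.11 and 0.31 in APP/PS1 vehicle mice, against -1.69, -1.19 and -0.32 in WT mice. Of the 7 APP/PS1 vehicle arrays, 6 lay above every WT array, and replicate 3 lay inside the WT range. The Rab7b signal of APP/PS1 vehicle mice exceeded that of WT mice 2.17-fold, a log2 difference of 1.12 (SE 0.22) with a limma adjusted p of 0.0073. Rab7, the general Rab of late endosomes, had 2.79, 2.98 and 3.13 in APP/PS1 UA mice and 2.80, 3.0 and 3.08 in APP/PS1 vehicle mice, against 2.95, 3.11 and 3.12 in WT mice. Its difference of -0.11 (SE 0.07, limma adjusted p = 0.326) did not pass, and a second probe of Rab7 had the opposite sign (0.10, SE 0.09). Of the 9 Rabs in this group Rab7b was the only one called, and the difference was below 0 for 6 of them, with a median of -0.10. Rab34, which positions lysosomes near the Golgi, had the next smallest p on the upper side (0.28, SE 0.11, adjusted p = 0.144), and Rab9b, a relative of the Rab9 that returns cargo from late endosomes to the Golgi, the smallest on the lower side (-0.31, SE 0.10, adjusted p = 0.0838). The difference of Rab39 was larger but had a wide error (-0.35, SE 0.28).

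Lysosome-related organelles, such as melanosomes, are served by Rab32, Rab38 and Rab29, which form 1 subfamily. Rab32 had -1.83, -1.53 and -1.44 (lowest, median and highest) in APP/PS1 UA mice and -1.74, -1.46 and -1.18 in APP/PS1 vehicle mice, against -2.02, -1.73 and -1.62 in WT mice. Of the 7 APP/PS1 vehicle arrays 6 lay above every WT array. The difference of 0.33 (SE 0.09) was the weakest of the 5 calls (limma adjusted p = 0.0491) and kept in 2 of 13 fits that left out 1 array. Rab38 spread widely inside every group, at -1.86, -0.73 and -0.44 in APP/PS1 UA mice and -1.85, -1.47 and -0.48 in APP/PS1 vehicle mice, against -2.36, -0.68 and -0.46 in WT mice (vehicle against WT -0.25, SE 0.34). Rab29, an activator of the kinase LRRK2 in human cells, had 0.32, 0.65 and 0.88 in APP/PS1 UA mice and 0.34, 0.67 and 0.95 in APP/PS1 vehicle mice, against 0.22, 0.47 and 0.73 in WT mice (0.16, SE 0.12). Neither difference passed, and with slide in the fit the difference of Rab29 was -0.08.

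Markers of microglia moved in the same comparison as Rab7b and Rab32. Of 16 microglial marker genes, all above the background filter, 13 were called higher in the APP/PS1 vehicle group, compared with WT mice. Their mean level ran from 1.89 to 2.41 on APP/PS1 UA arrays and from 2.36 to 2.69 on APP/PS1 vehicle arrays, against 1.06 to 1.40 on WT arrays. For astrocytes 3 of 8 markers were called higher, with mean levels from 3.08 to 3.26, from 3.1 to 3.29 and from 2.74 to 3.03 in APP/PS1 UA, APP/PS1 vehicle and WT mice. The part of these cell types in the levels of Rab7b and Rab32 was not tested.

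Of the 13 ER and Golgi Rabs, 2 were called, both lower and both of the Rab6 family. Rab6b, the neuronal form that carries cargo back from Golgi to ER, had 7.44, 7.58 and 7.85 in APP/PS1 UA mice and 7.27, 7.34 and 7.65 in APP/PS1 vehicle mice, against 7.57, 7.80 and 7.93 in WT mice. In 6 of 7 APP/PS1 vehicle mice Rab6b lay below every WT array, and it was 1.33-fold lower in APP/PS1 vehicle mice (log2 difference -0.41, SE 0.08, limma adjusted p = 0.00864). Rab6a, the ubiquitous form that releases vesicles from the trans-Golgi, had 6.32, 6.50 and 6.72 in APP/PS1 UA mice and 6.19, 6.27 and 6.58 in APP/PS1 vehicle mice, against 6.46, 6.71 and 7.07 in WT mice. It was 1.32-fold lower in APP/PS1 vehicle mice (-0.40, SE 0.10, limma adjusted p = 0.0256), and again 6 of 7 arrays lay below every WT array. Each of the 2 genes rests on a single probe, whose sequence was not used here, so signal shared between these close relatives was not tested. Rab1a, which moves cargo out of the ER, had a difference of -0.24 (SE 0.08, adjusted p = 0.0697), and Rab2b, which acts on the same route, of -0.29 (SE 0.09, adjusted p = 0.076). The second probes of Rab1a and Rab2b gave weaker differences, of -0.12 (SE 0.06) and -0.08 (SE 0.08). The difference was below 0 for 10 of the 13, with a median of -0.10, and the remaining Rabs of this group lay between -0.13 for Rab1b and 0.12 for Rab30.

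Among the 11 Rabs of recycling endosomes and the cell surface, Rab14 was called. Rab14, which carries cargo between early endosomes, the Golgi and the surface, had 5.18, 5.32 and 5.52 in APP/PS1 UA mice and 4.96, 5.24 and 5.33 in APP/PS1 vehicle mice, against 5.41, 5.49 and 5.60 in WT mice. Every APP/PS1 vehicle array lay below every WT array. Of the 55 Rabs, 1 was lower and 0 were higher without overlap. Among all 25599 genes tested, 234 (0.914%) were lower and 366 were higher without overlap. The difference was -0.28 (SE 0.07, limma adjusted p = 0.0265), and all 3 probes of Rab14 gave a lower signal, by -0.28, -0.25 and -0.24. Rab15, an endosomal Rab abundant in brain, had a wider spread and a difference of -0.45 (SE 0.14, adjusted p = 0.0721). The second probe of Rab15 gave a weaker difference of -0.17 (SE 0.16). Rab35, which drives fast recycling to the surface, had a difference of -0.21 (SE 0.07, adjusted p = 0.0772), and neither Rab15 nor Rab35 passed. Rab13, a Rab of epithelial and endothelial junctions, had -2.41, -2.13 and -1.86 in APP/PS1 vehicle mice, against -2.66, -2.38 and -2.21 in WT mice, a difference of 0.26 (SE 0.10, adjusted p = 0.122) that was 0.11 (SE 0.11) on its second probe. Rab11a, the recycling endosome Rab of all tissues, had 2.82, 3.06 and 3.20 in APP/PS1 UA mice and 2.66, 2.91 and 3.35 in APP/PS1 vehicle mice, against 2.85, 3.06 and 3.21 in WT mice. Rab11b, its close relative rich in brain, had 3.94, 4.03 and 4.25 in APP/PS1 UA mice and 3.75, 3.99 and 4.14 in APP/PS1 vehicle mice, against 3.98, 4.13 and 4.26 in WT mice. Their differences of -0.09 (SE 0.11) and -0.14 (SE 0.07) did not pass.

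None of the 8 Rabs of secretory vesicles was called, although all 8 differences were below 0, with a median of -0.31. Rab3a, the main Rab of synaptic vesicles, had 7.31, 7.44 and 7.73 in APP/PS1 UA mice and 6.93, 7.25 and 7.66 in APP/PS1 vehicle mice, against 7.40, 7.70 and 7.78 in WT mice. Its difference of -0.37 (SE 0.11) stood just outside the threshold (limma adjusted p = 0.0559), and its second probe gave -0.28 (SE 0.12). Rab3c, which shares synaptic vesicles with Rab3a, had 4.17, 4.81 and 4.98 in APP/PS1 UA mice and 3.87, 4.06 and 4.86 in APP/PS1 vehicle mice, against 3.93, 4.98 and 5.11 in WT mice (vehicle against WT -0.55, SE 0.21, adjusted p = 0.131). Rab3b had 3.09, 3.77 and 3.94 in APP/PS1 UA mice and 2.47, 3.21 and 3.74 in APP/PS1 vehicle mice, against 3.18, 3.77 and 3.99 in WT mice (-0.40, SE 0.20, adjusted p = 0.231). The ranges of both overlapped between the genotypes. Rab3d, a Rab of exocrine and endocrine granules, had -1.12, -1.05 and -0.81 in APP/PS1 UA mice and -1.44, -1.11 and -0.84 in APP/PS1 vehicle mice, against -1.53, -1.09 and -0.74 in WT mice (-0.03, SE 0.12, a sign that turned in 6 other fits, with -0.31, SE 0.22, on its second probe). Rab27b, which docks secretory granules, had a difference of -0.39 (SE 0.13, adjusted p = 0.0897).

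Neuronal markers lay low in the same comparison, beside the Golgi and vesicle Rabs. None of 10 neuronal marker genes was called, but 9 differences were below 0 and 6 were lower at an unadjusted p under 0.05. Their mean level ran from 5.37 to 5.60 on APP/PS1 UA arrays and from 5.04 to 5.50 on APP/PS1 vehicle arrays, against 5.42 to 5.74 on WT arrays. The part of neuronal content in the Rab levels was not tested.

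None of the 7 early endosomal Rabs was called, and 3 of their differences were below 0. Rab5a, which fuses early endosomes, had 3.49, 3.71 and 3.80 in APP/PS1 UA mice and 3.45, 3.60 and 3.84 in APP/PS1 vehicle mice, against 3.02, 3.90 and 4.02 in WT mice. WT replicate 1 was the low WT array. Without it the difference of Rab5a was -0.31 with a limma adjusted p of 0.0288, against -0.16 (SE 0.13, adjusted p = 0.463) with all arrays. Rab5b had 3.11, 3.35 and 3.45 in APP/PS1 UA mice and 3.01, 3.26 and 3.34 in APP/PS1 vehicle mice, against 3.22, 3.37 and 3.45 in WT mice. Its 2 probes differed in sign (-0.14 and 0.16), and neither passed. Rab5c had 1.80, 2.76 and 3.06 in APP/PS1 UA mice and 2.56, 2.84 and 2.95 in APP/PS1 vehicle mice, against 2.52, 2.69 and 2.74 in WT mice (vehicle against WT 0.18, SE 0.14). The largest value of this group, 0.95 for Rab20, a Rab of phagosomes and macrophage endosomes, has an SE of 0.57 and comes from a probe near background. The 4 Rabs of the cilium and of cullin ligases (Rab23, Rab28, Rab40b and Rab40c) lay between -0.15 and -0.03, and none was called.

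**Figure D2:**
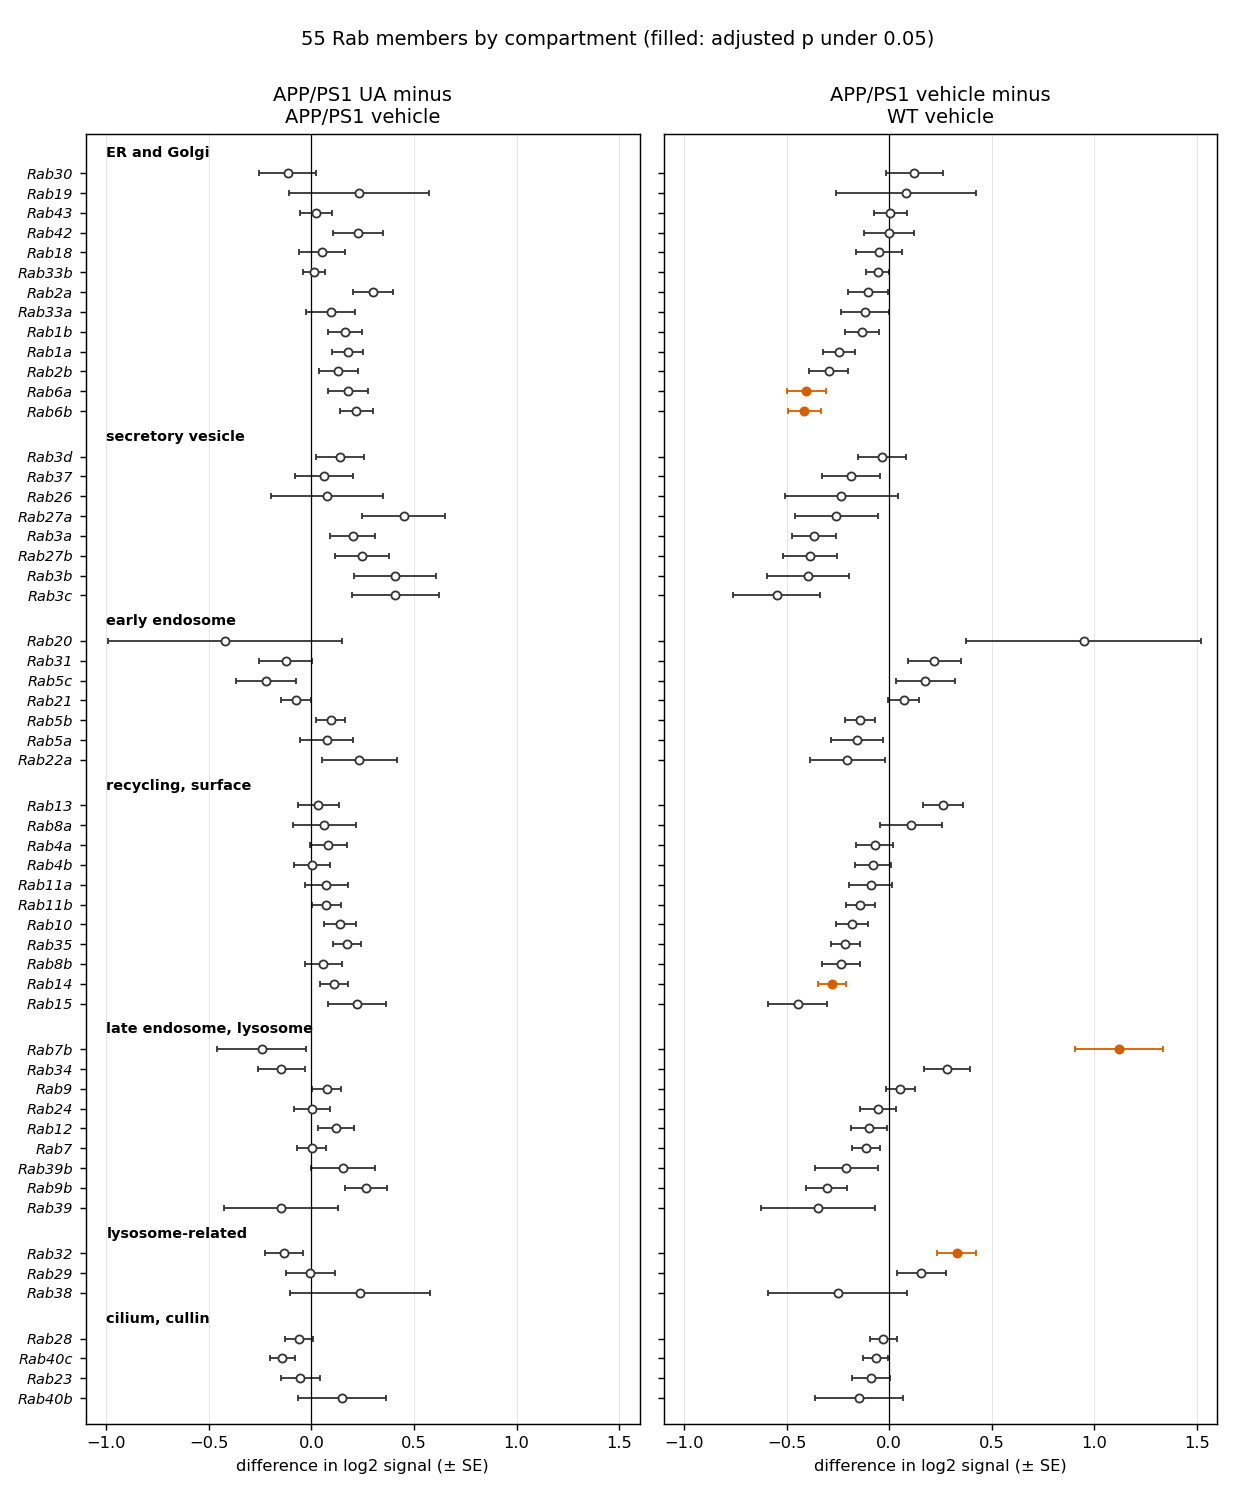
Difference in log2 signal ± SE (x axis) of each of the 55 Rabs (rows, by compartment), for APP/PS1 UA minus APP/PS1 vehicle (left) and APP/PS1 vehicle minus WT (right). Filled orange points have a limma adjusted p under 0.05: 5 of them are in the right panel, led by Rab7b at 1.12, and none in the left.

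UA against vehicle in APP/PS1 mice asks whether the compound moved Rab transcripts. No Rab was called, and neither was any other gene: 0 of 25599 genes tested (0%) passed in limma, while 3956 (15.5%) had an unadjusted p under 0.05. With normexp background correction on the median signal 1620 genes (6.33%) were called, none of them a Rab. Among the Rabs 7 of 55 had an unadjusted p under 0.05, 6 higher and 1 lower, against 5.85% of all genes higher and 9.61% lower. The difference was above 0 for 42 of the 55 Rabs, with a median of 0.08, while 51.7% of all genes were below 0, with a median of -0.01.

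The Rabs with the smallest p on the upper side were Rab2a, Rab6b and Rab9b. Rab2a, an ER and Golgi Rab that also helps autophagosomes fuse with lysosomes, had 4.75, 4.89 and 5.36 in APP/PS1 UA mice, against 4.48, 4.59 and 4.91 in APP/PS1 vehicle mice (0.30, SE 0.10, limma adjusted p = 0.182). APP/PS1 UA replicate 3 was far above the other 5 arrays, and without it the difference was 0.21. The second probe of Rab2a, also above background on every array, gave a difference of -0.00035 (SE 0.06). Rab6b lay higher by 0.22 (SE 0.08, adjusted p = 0.222), and Rab9b, at 2.54, 2.80 and 2.95 in APP/PS1 UA mice, against 2.27, 2.54 and 2.72 in APP/PS1 vehicle mice, by 0.27 (SE 0.10, adjusted p = 0.232). Each of the 3 had all 6 APP/PS1 UA arrays above the APP/PS1 vehicle mean, yet the ranges overlapped. On the lower side Rab40c, a Rab that recruits a cullin ubiquitin ligase, had 2.55, 2.73 and 2.87 in APP/PS1 UA mice, against 2.79, 2.86 and 2.92 in APP/PS1 vehicle mice (-0.14, SE 0.06, adjusted p = 0.283), and its second probe gave -0.43 (SE 0.12), which did not pass either. It was followed by Rab5c (-0.22, SE 0.14, adjusted p = 0.464) and Rab32 (-0.13, SE 0.09, adjusted p = 0.503). For Rab5c, APP/PS1 UA replicate 4 was the lowest array, at 1.80, and without it the difference was -0.06. Within slide 2, with 3 APP/PS1 UA and 5 APP/PS1 vehicle arrays, the differences were 0.35 for Rab2a, 0.27 for Rab6b, 0.17 for Rab9b, -0.20 for Rab40c, -0.16 for Rab5c and -0.18 for Rab32, and none passed. For Rab7b the difference between UA and vehicle over all arrays was -0.24 (SE 0.22, adjusted p = 0.597). Differences lay above 0 for 12 of 13 ER and Golgi Rabs, 8 of 8 secretory vesicle Rabs and 11 of 11 recycling Rabs, with medians of 0.16, 0.22 and 0.07. This comparison shares the APP/PS1 vehicle arrays with the previous one, so opposite signs in the 2 are not separate observations. In the same comparison all 10 neuronal markers lay above 0 and 15 of 16 microglial markers below 0, and none of either list was called. At an unadjusted p under 0.05, 12 of the 16 microglial markers were lower, against 9.61% of all genes, and 0 of the 10 neuronal markers differed.

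UA treated APP/PS1 mice against WT mice asks which Rabs still differed under the compound. None of the 55 was called, where 24 of 25599 genes (0.0938%) were. At an unadjusted p under 0.05 there were 6 Rabs, 2 higher and 4 lower, against 8.83% of all genes, 4.19% higher and 4.64% lower. Rab7b had the smallest p: all 6 APP/PS1 UA arrays lay above the WT mean, with -0.55, -0.26 and 0.03 in APP/PS1 UA mice, against -1.69, -1.19 and -0.32 in WT mice (0.88, SE 0.22, limma adjusted p = 0.192). Next by p on the upper side came Rab13, at -2.32, -2.14 and -1.86 in APP/PS1 UA mice, against -2.66, -2.38 and -2.21 in WT mice (0.29, SE 0.10, adjusted p = 0.433), and Rab32 (0.20, SE 0.10, adjusted p = 0.582). On the lower side stood Rab40c, at 2.55, 2.73 and 2.87 in APP/PS1 UA mice, against 2.74, 2.96 and 3.01 in WT mice (-0.21, SE 0.06, adjusted p = 0.348), Rab14 (-0.17, SE 0.07, adjusted p = 0.504) and Rab6b (-0.19, SE 0.08, adjusted p = 0.513). All 6 APP/PS1 UA arrays lay below the WT mean of Rab40c. The other 2 probes of Rab14 gave -0.06 and 0.02 in this comparison, with SE 0.07 and 0.08. The median difference over the Rabs was -0.04, against -0.02 over all genes, and 32 of 55 lay below 0.

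**Figure D3:**
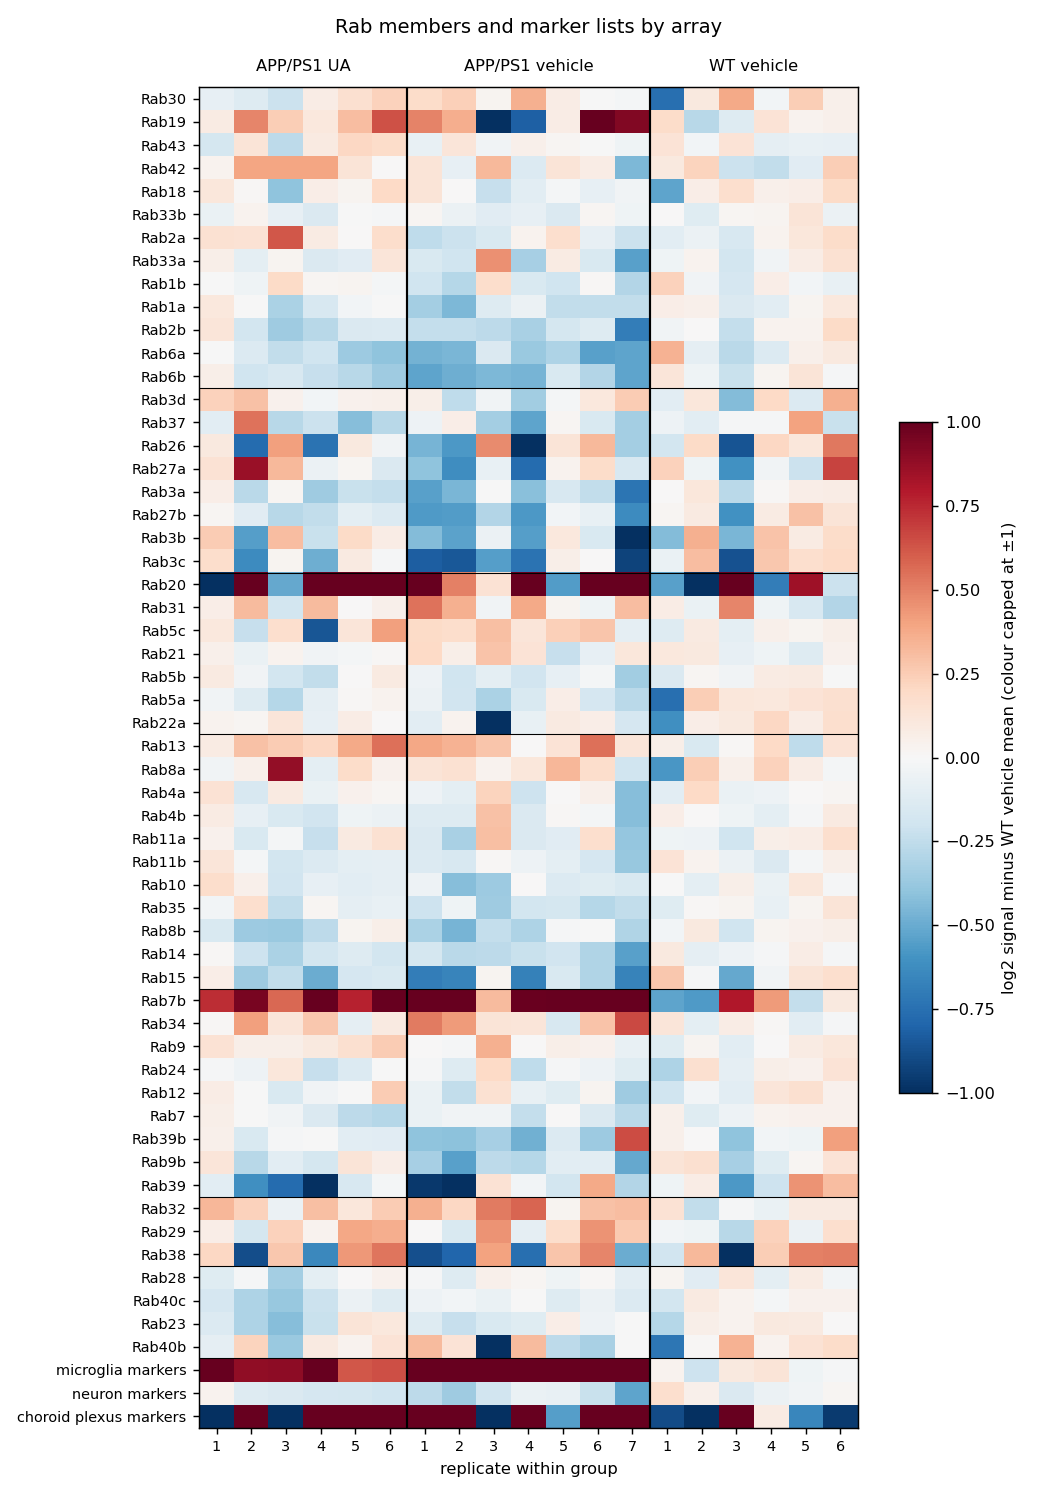
Level of each of the 55 Rabs (rows, by compartment in the order ER and Golgi, secretory vesicle, early endosome, recycling, late endosome, lysosome-related, cilium and cullin) on each array (columns) minus the WT mean, with the mean levels of 3 marker lists below. Colour is capped at a difference of 1 either way; the Rab7b row lies above every WT array in 3 of 6 APP/PS1 UA and 6 of 7 APP/PS1 vehicle arrays, and the choroid plexus row shows the split between arrays inside each group.

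Genes that run the Rab cycle were listed with earlier results of these data known and are described by counts. In APP/PS1 vehicle against WT mice 3 of 50 Rab effectors, 1 of 8 escort, prenylation and GDI genes, 1 of 31 GTPase-activating proteins and 1 of 32 exchange factors were called, all lower. These are 6%, 12.5%, 3.23% and 3.12% of the lists, against 2.38% of all genes tested called lower and 5.07% called in either direction. The effectors were Rbsn, which tethers early endosomes under Rab5 (-0.26, SE 0.06, limma adjusted p = 0.0235), Rubcn, a brake on endosome and autophagosome maturation (-0.28, SE 0.07, adjusted p = 0.031), and Ocrl, a phosphoinositide phosphatase of endosomes and Golgi (-0.33, SE 0.09, adjusted p = 0.0369). Rabif, a chaperone of nucleotide-free Rabs, had -0.28 (SE 0.07, adjusted p = 0.0256). Tbc1d24, a TBC domain protein of synaptic vesicle traffic, had -0.35 (SE 0.09, adjusted p = 0.0369). Madd, the exchange factor of Rab3 and Rab27, had -0.29 (SE 0.08, adjusted p = 0.0385). The difference was below 0 for 34 of 50 effectors, 8 of 8 escort genes, 18 of 31 GTPase-activating proteins and 14 of 32 exchange factors, with medians of -0.10, -0.16, -0.05 and 0.03. No gene of these lists was called in the other 2 comparisons.

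Slide, sex and choroid plexus signal varied with the groups, so the 5 calls were set beside fits that take each into account. Within slide 1, which holds 2 APP/PS1 vehicle and 6 WT arrays, the differences were 1.28 for Rab7b, 0.28 for Rab32, -0.51 for Rab6b, -0.47 for Rab6a and -0.22 for Rab14. None passed there (limma adjusted p from 0.129 to 0.245), where 22 genes did in all. With slide as a fixed block no Rab was called, and 0.297% of all genes were. With slide as a random block, whose estimated correlation was -0.04, 8 Rabs were called, the same 5 among them, and 8.81% of all genes. A correlation below 0 treats arrays of 1 slide as less alike than arrays of different slides. This fit therefore did not adjust for slide, and its calls exceed the 5.07% of all genes called without a block. With the choroid plexus marker level as a covariate the differences were 0.89 for Rab7b, 0.32 for Rab32, -0.35 for Rab6b, -0.32 for Rab6a and -0.26 for Rab14, and Rab32 alone of the 5 did not pass (adjusted p = 0.0689). On the 7 arrays of these groups with little choroid plexus signal, 2 APP/PS1 vehicle and 5 WT, they were 0.89, 0.27, -0.34, -0.28 and -0.24 in the same order, and none passed. Across all 19 arrays Rab3a had 6.93, 7.35 and 7.44 (lowest, median and highest) on the 10 arrays with strong choroid plexus signal, against 7.50, 7.68 and 7.78 on the 9 with little, which are sets defined from the arrays. It was the only one of the 55 Rabs without overlap between them, where 0.539% of all genes were lower and 1.79% higher without overlap. Rab7b overlapped, at -0.35, -0.01 and 0.31 on the arrays with strong signal, against -1.69, -0.80 and 0.02 on those with little. Its highest WT level, -0.32, was on WT replicate 3, the WT array with strong signal. Its lowest APP/PS1 vehicle level, -0.80, was on replicate 3, the array with the lowest choroid plexus level (-3.19). The same array had the lowest 75th percentile (450.4 intensity units) and the lowest share of probes above background (51.4%). Array brightness was a term in no fit, and its part in Rab7b was not tested. The part of choroid plexus signal in Rab7b was not tested beyond these fits. For Rab3a the difference was -0.24 with the choroid plexus covariate (adjusted p = 0.0322) and -0.14 (SE 0.10, adjusted p = 0.545) on arrays with little choroid plexus signal. Without WT replicate 3, the single WT array with strong choroid plexus signal, 11 Rabs were called, 1 higher and 10 lower, while the share of all genes called was 8.84%. With sex as a covariate 10 were called, with 7.68% of all genes, and on male arrays 1, Rab6b (-0.48, adjusted p = 0.0192), with 0.957% of all genes.

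**Figure D4:**
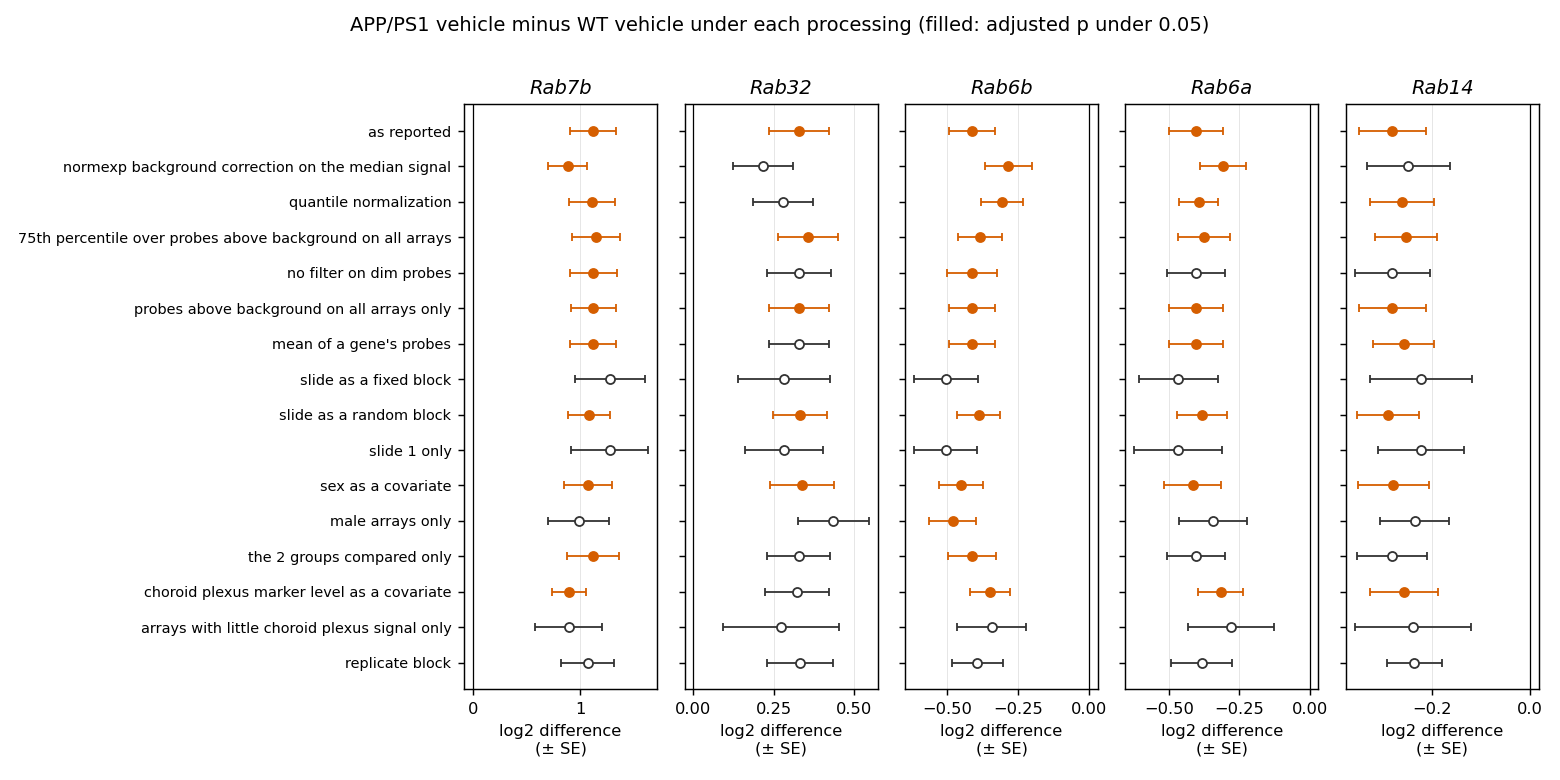
Difference of APP/PS1 vehicle minus WT in log2 signal ± SE (x axis, its own range in each panel) for the 5 called Rabs under each way of processing (rows). Filled orange points have an adjusted p under 0.05; every point keeps the sign of the top row.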

How the data were processed

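The scanner files hold green (Cy3) spot intensity from Agilent Feature Extraction 12.0.3.1 with a 2-colour protocol, background-subtracted and dye-normalized per array, per the file headers, and the cRNA was made from 200 ng of RNA, per the labels' protocols. Each column of the authors' deposited value table is a score, the log10 intensity centred and divided by its SD within the array, matched to within 0.005, with medians from -0.28 to -0.17. Control and non-uniform spots were dropped, spots of a probe were averaged, and log2 intensity minus the array's 75th percentile was used. Accessions were named through RefSeq (GRCm38.p6), and 23611 of 56605 probes had no symbol. Probes well above background on 6 or more arrays were kept, the brightest standing for its gene. Of 27 Rabs with several kept probes, 17 had all in 1 direction between genotypes.

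One fit over all 19 arrays in limma 3.58.1 (R 4.3.3) gave the 3 comparisons, with 2-sided p-values adjusted by Benjamini-Hochberg over 25599 genes. The fit was tested on simulated data. The number of arrays limits the precision, and depth in reads does not apply. Mice were taken as replicates because each array has its own sample label.

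The Rabs, their groups, the marker lists and the rule for named genes were chosen with earlier results of these data known. That rule took every called Rab, the 3 smallest p each way per comparison, the families Rab3, Rab5, Rab7, Rab11 and Rab32, and up to 3 called genes per list of the Rab cycle; other Rabs named were chosen after their values were seen. Alternatives covered background correction, scaling, probe filter, probe choice, slide, sex, choroid plexus signal (chosen after seeing the data), replicate number and left-out arrays.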

Additional observations from a re-analysis of the deposited data

Results flagged for a closer look

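Each group of 6 or 7 arrays was checked for an array far from the others, with Dixon's critical value, over the 21 Rabs taken by the rule for named genes. It marked 7 of 63 groups of values (11.1%), where chance marks about 1 in 20. The groups of values are not independent, since they share arrays, and 3 of the 7 marks fall on WT replicate 3. Rab7b stood at -0.80 in APP/PS1 vehicle replicate 3, against -0.13 to 0.31 in the other 6 arrays. Rab14 stood at 4.96 in APP/PS1 vehicle replicate 7, against 5.20 to 5.33. Rab2a stood at 5.36 in APP/PS1 UA replicate 3, against 4.75 to 4.92. In WT replicate 3, Rab3a stood at 7.40 against 7.67 to 7.78 in the other WT arrays, Rab3c at 3.93 against 4.73 to 5.11, and Rab38 at -2.36 against -1.16 to -0.46. Rab5a stood at 3.02 in WT replicate 1, against 3.87 to 4.02. WT replicate 3 is the WT array with strong choroid plexus signal, and the part of that signal was not tested for these 3 genes one by one.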

How the results depend on the processing

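In APP/PS1 vehicle against WT mice 5 of the 55 Rabs were called. The total over the 55 was 6 with normexp background correction on the median signal (3 of the 5 among them), 5 with quantile normalization (4 of the 5) and with the choroid plexus covariate (4), 5 with the percentile over detected probes (all 5), 6 with probes above background on all arrays (all 5) and 4 with the mean of a gene's probes (all among the 5). The count moved to 1 with the deposited value table, 2 without a filter on dim probes (353 genes in all, against 1298), 0 with slide as a fixed block (76) and within slide 1 (22), 8 with slide as a random block (2254), 10 with sex as a covariate (1966), 1 on male arrays (245), 2 with only these groups in the fit (436) and 0 on arrays with little choroid plexus signal (19). Fits on slide 1, on male arrays, with only these groups and on arrays with little choroid plexus signal hold fewer samples. The cause of the change in count was not tested for any setting. Leaving out 1 array gave 2 to 11. The count was 3 without APP/PS1 vehicle replicate 1 or 6, 9 without APP/PS1 vehicle replicate 5, 11 without WT replicate 3 and 2 without WT replicate 5 or 6. Rab6b and Rab7b kept the call in 13 of 13 such fits, Rab14 in 11, Rab6a in 9 and Rab32 in 2. All 5 kept their sign in each of these fits. Under the 3 other scalings on the log2 scale the median over the Rabs lay between -0.13 and -0.08, with 40 or 41 of 55 below 0. These scalings kept the same probe for each gene, so they do not cover the choice of probe. In the UA comparisons no Rab was called under any alternative run, while in UA against vehicle normexp called 1620 genes, the choroid plexus covariate 61 and the fit without APP/PS1 vehicle replicate 4 called 10.

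Values that turned sign, none of them called, were those of Rab3d (0.0241 with normexp, 0.0035 with the choroid plexus covariate, 0.002 and 0.0178 without APP/PS1 vehicle replicate 2 or 4, 0.0058 and 0.0365 without WT replicate 4 or 6, in a range of -0.1211 to 0.0365 over left-out arrays), Rab5b (0.0115 with the mean of probes), Rab11a (0.0542 on arrays with little choroid plexus signal), Rab29 (-0.0759 with slide as a fixed block and within slide 1) and Rab38 (0.0345 with the choroid plexus covariate, 0.0595 on arrays with little choroid plexus signal). The choroid plexus settings and normexp on the median signal were chosen after seeing the data, and normexp on the mean signal was not run, since the files used here give the median. No slide holds both APP/PS1 UA and WT arrays, so that comparison has no value within a slide.

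The groups share replicate numbers by label. Deviations of same-numbered arrays correlated between -0.55 and 0.39, and not every pair was above 0.1, so the numbers were not taken as pairs. With the replicate block 0 Rabs were called between genotypes (338 genes in all), and 0 in the UA comparisons. Signal near background limits Rab19 and Rab20.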
